A study of Homo sapiens with 24 samples.

Results

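The transcripts described here are those of YAP1, of its DNA-binding partner TEAD1, of 6 genes known as targets or regulators in the same pathway (CCN1, CCN2, ANKRD1, AMOTL2, LATS2 and AJUBA), and of the receptor tyrosine kinase AXL. The genes were chosen by name, with earlier results of these data known. Every probe set that carries 1 of these 9 symbols and no other symbol was then taken, without regard to its value. That gave 21 probe sets of the 41091 tested, and 9 genes of 19775. LATS2 and AJUBA had 4 probe sets each, TEAD1 and YAP1 had 3 each, AXL and CCN1 had 2 each, and CCN2, ANKRD1 and AMOTL2 had 1 each. Probe sets of 1 gene read the same transcripts and are not independent. CCN1 and CCN2 are also known as CYR61 and CTGF.

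RNA came from HCT15 and HT115, established human colorectal cancer lines that the labels describe as carrying loss-of-function mutations in the kinase MLK4 (gene MAP3K21). Each line held a tetracycline-inducible MLK4 in 1 of 2 forms. HCT15 carried wild type (WT) or Y330H, and HT115 carried WT or E314K; the mutant forms served as controls. Each of these 4 derivatives gave 3 arrays tagged Tet, from cells given tetracycline for 24 h, and 3 untagged arrays. What the untagged cells received is not given in the labels, and neither is whether a derivative is 1 clone. All cells, the controls included, were derivatives of lines with the mutated endogenous gene. The study asked what restored MLK4 does to transcription in these lines, and the change called induction below is the Tet mean minus the untagged mean.

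YAP is a transcriptional coactivator that binds no DNA itself. When the Hippo kinases, LATS2 among them, leave it unphosphorylated, it enters the nucleus and joins TEAD factors at sites with the core GGAATG, from which it drives genes such as CCN1, CCN2, ANKRD1 and AMOTL2. Several of its targets restrain it in turn, and AP-1 factors, the end points of JNK signalling, often occupy the same enhancers. AXL, a receptor for the ligand GAS6, has been described as a YAP target in some carcinomas.

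The arrays were checked as a set before any member was read. Replicate arrays of a group correlated at 0.986 or more over the tested probe sets. The 6 HT115 WT arrays had median log2 signals from 5.55 to 5.61 and the other 18 arrays from 6.38 to 6.48. For that reason no log2 level of an HT115 WT array was set against another array. The HCT15 WT arrays numbered 1 stood apart in the ACTB controls, where the 3′ probe set exceeded the 5′ one by 1.18 untagged and 0.93 with Tet, while the other 22 arrays lay between 0.30 and 0.65. The epithelial markers EPCAM, KRT8 and KRT18 averaged 12.6, 12.5 and 13.3 in HCT15 and 12.6, 12.8 and 13.5 in the HT115 E314K arrays on the log2 scale. The other 3 epithelial markers differed between them: CDH1 averaged 12.7 and 10.3, CDX2 averaged 9.21 and 10.7, and CDH17 averaged 7.02 and 11.5. PTPRC, the pan-leukocyte marker, averaged 4.66 and 4.59, and CD3E averaged 2.99 and 3.08. The leukocyte markers LYZ (4.53 and 13.7) and CD14 (7.72 and 5.61) differed between them. The single MAP3K21 probe set was not called on induction in HCT15 WT (-0.15, SE 0.14, adjusted p = 0.823) or HT115 WT (-0.19, SE 0.14, adjusted p = 0.913). Where in the transcript it lies is not given, so it checks neither the labels nor the transgene.

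The promoters of CCN2, ANKRD1 and AXL are shown because the first and second are textbook TEAD-bound promoters and AXL was the member with the smallest p on induction. RefSeq promoter windows (GRCh38.p14) were found for 7 of the 9 genes, with 10 start sites among them. CCN1 and TEAD1 had no window, so their promoters were not searched. In the sequences below, read 5′ to 3′ along the gene, capitals mark GGAATG or its reverse complement CATTCC. In ANKRD1 they also mark TGATTCA, a match to the loose AP-1-like pattern TGANTCA, in which N is any base. The first 3 lines give the 250 bases before a start site at chr6:131951373-131951622 (- strand) for CCN2, chr10:90921088-90921337 (- strand) for ANKRD1 and chr19:41218973-41219222 (+ strand) for the first AXL start.
CCN2: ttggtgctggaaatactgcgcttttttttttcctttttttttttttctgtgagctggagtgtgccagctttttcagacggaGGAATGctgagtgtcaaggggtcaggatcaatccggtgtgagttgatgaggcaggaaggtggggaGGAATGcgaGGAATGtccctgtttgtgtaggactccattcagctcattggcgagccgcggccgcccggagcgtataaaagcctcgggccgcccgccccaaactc
ANKRD1: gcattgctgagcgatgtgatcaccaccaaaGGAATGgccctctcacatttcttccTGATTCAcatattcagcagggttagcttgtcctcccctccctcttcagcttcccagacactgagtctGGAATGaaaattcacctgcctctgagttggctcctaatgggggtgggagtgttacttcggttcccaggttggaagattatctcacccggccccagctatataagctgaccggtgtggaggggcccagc
AXL: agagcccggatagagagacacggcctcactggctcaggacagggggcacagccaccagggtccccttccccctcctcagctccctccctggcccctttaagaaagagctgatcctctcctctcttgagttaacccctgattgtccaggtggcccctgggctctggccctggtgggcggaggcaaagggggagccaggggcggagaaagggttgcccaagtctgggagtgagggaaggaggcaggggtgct
The CCN2 window held 3 TEAD cores, whose first bases lie at -169, -104 and -95 from the start site, and the last 2 of them stand close together. ANKRD1 held 2 cores, at -220 and -128, and a TGANTCA at -195. The first AXL start held neither motif, whereas the window of its second start held 1 core at -212.

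Single cores stood before a start site of 4 genes, and these are shown with 10 bases on each side so that their flanks can be compared. They lie at chr19:41226533-41226558 (+ strand) for the second AXL start, chr3:134374501-134374526 (- strand) for the second AMOTL2 start, chr14:22976886-22976911 (- strand) for the second AJUBA start and chr11:102110275-102110300 (+ strand) for YAP1.
AXL: gactttgcacCATTCCactccctccg
AMOTL2: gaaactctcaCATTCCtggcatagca
AJUBA: gaagttggctGGAATGaagccaaagc
YAP1: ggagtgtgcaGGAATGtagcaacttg
Counting both strands, 6 of the 10 member start sites (60%) held a core in the 250 bases before the start, compared with 11.9% of 35116 start sites in the RefSeq table. The genes were chosen for their known place in this pathway, so this share is a description and not a test. AXL, AMOTL2 and AJUBA entered with more than 1 start site each. At least 2 cores were found before 0.94% of all start sites, and at least 3 before 0.0826%. TGANTCA was found before 6.57%. No TGANTCA overlapped a TEAD core in these windows. The LATS2 window held its only core at 10 bases after the start. A match describes the letters alone, and no binding was measured in this series.

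AXL and CCN1 rose on induction of WT MLK4 in HCT15, and no other member passed the test. AXL rose 1.65-fold on its brighter probe set and CCN1, a secreted matricellular protein that signals through integrins, rose 1.77-fold on 1 of its 2 probe sets. CCN2, ANKRD1 and AMOTL2, the other members usually read as YAP targets, had lower means with Tet but did not pass. YAP1 and TEAD1 did not pass either. The counts were 2 of 21 probe sets higher (9.52%) and 0 lower, against 0.555% of all probe sets called higher and 0.073% lower. As the genes were chosen with earlier results of these data known, these shares are a description and not a test. The members' median change was 0.12, with 13 of 21 above 0, beside a median of -0.02 over all probe sets with 46.2% above 0.

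AXL on probe set 202686_s_at read 5.40, 5.13 and 5.26 in the untagged HCT15 WT arrays and 6.13, 5.99 and 5.84 in the Tet arrays, replicates 1 to 3 in order. Every Tet array was above every untagged array. The log2 change, 3 against 3 arrays, was 0.72 (SE 0.12, 95% interval 0.46 to 0.98, adjusted p = 0.0052). Its SE and p rest on a spread estimated over all 24 arrays. Each same-numbered pair differed in that direction, by 0.73, 0.86 and 0.58. The second AXL probe set, 202685_s_at, is dimmer and read 4.52, 4.75 and 4.91 untagged against 4.88, 4.84 and 5.11 with Tet. These groups overlapped, and the change of 0.22 (SE 0.15, adjusted p = 0.738) was not called. The file holds no detection call, so how far either AXL probe set stands above background is unknown. Over the 18 arrays outside HT115 WT, the brighter stood at percentile 27.9 and the dimmer at 20.3 of all tested probe sets. The brightest probe sets of fibroblast marker genes stood between 10.8 (LUM) and 52.7 (COL1A1) there. AXL lost its call without the Tet array numbered 1 (adjusted p = 0.0518) and without both arrays numbered 1 (0.72, adjusted p = 0.0502), the pair with the high ACTB gap.

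CCN1 on 210764_s_at read 9.06, 9.01 and 9.12 untagged and 10.23, 9.88 and 9.54 with Tet. On 201289_at it read 9.64, 9.15 and 9.19 untagged and 10.43, 10.00 and 9.67 with Tet. All Tet arrays were above all untagged arrays on both probe sets, and the Tet array numbered 1, 1 of the pair with the high ACTB gap, was the highest. The changes were 0.82 (SE 0.18, adjusted p = 0.0359) and 0.71 (SE 0.20, adjusted p = 0.14). Same-numbered HCT15 arrays deviated together and were taken as pairs. The replicate block was fitted to all 24 arrays and so blocked the HT115 numbers too. With it the second CCN1 probe set was called as well (adjusted p = 0.00361), and 4 of 21 members were higher against 2.91% of all probe sets. On the HCT15 arrays alone, a variant added after seeing the data, the block gave that CCN1 probe set an adjusted p of 0.0354. The call of 210764_s_at was lost without any 1 of 5 of the 6 arrays: adjusted p was 0.0757, 0.161 and 0.085 without untagged arrays 1, 2 and 3, and 0.241 and 0.135 without Tet arrays 1 and 2. Without both arrays numbered 1, its change was 0.65 (adjusted p = 0.341).

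**Figure D1:**
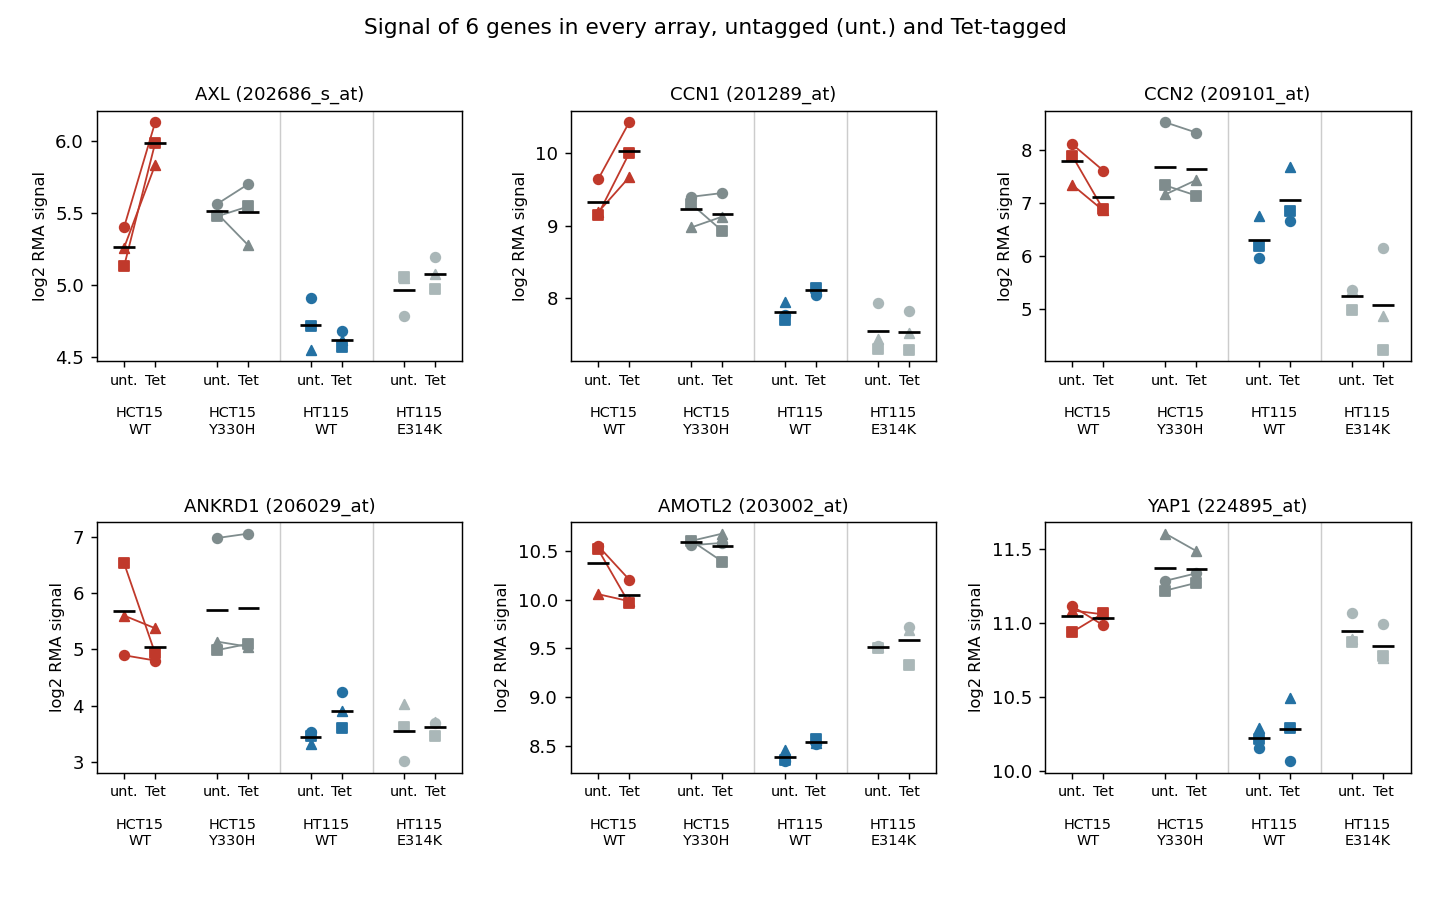
Log2 signal of AXL, CCN1, CCN2, ANKRD1, AMOTL2 and YAP1 (brightest probe set each) in all 24 arrays, by line, MLK4 form and tag; circles, squares and triangles are replicates 1, 2 and 3, black bars are group means, lines join same-numbered HCT15 arrays, and the HT115 WT arrays are on a scale of their own. In HCT15 WT every Tet array is above every untagged array for AXL (5.84 to 6.13 against 5.13 to 5.40) and CCN1 (9.67 to 10.43 against 9.15 to 9.64), and ANKRD1 in HCT15 Y330H is high in both arrays numbered 1 (6.97 and 7.05).

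CCN2, the connective tissue growth factor and the classical companion of CCN1 in reports of YAP activity, read 8.11, 7.89 and 7.34 in untagged HCT15 WT arrays and 7.61, 6.88 and 6.86 with Tet. The Tet array was the lower one in all 3 pairs, although the groups overlapped. The change of -0.66 (SE 0.42, 95% interval -1.54 to 0.21) had an adjusted p of 0.709, and of 0.136 with the replicate block. ANKRD1, a nuclear ankyrin-repeat cofactor, read 4.89, 6.53 and 5.60 untagged and 4.80, 4.93 and 5.37 with Tet. Its change of -0.64 (SE 0.49, adjusted p = 0.786) rested mainly on the pair numbered 2, which differed by -1.60, while the others differed by -0.094 and -0.23.

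AMOTL2, an angiomotin that binds YAP and holds it at cell junctions, read 10.55, 10.52 and 10.06 untagged and 10.20, 9.96 and 9.98 with Tet. The groups overlapped through the untagged array numbered 3, and the change of -0.32 (SE 0.13, adjusted p = 0.386) was not called. AJUBA, a LIM protein that binds and inhibits LATS kinases, had changes from -0.36 to -0.17 on its 4 probe sets, with adjusted p from 0.566 to 0.932. The AJUBA groups overlapped on each of these probe sets.

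LATS2, the kinase that phosphorylates YAP, had changes from 0.07 to 0.49 on 4 probe sets. Its dimmest probe set, 230348_at, read 7.02, 6.73 and 6.21 untagged and 7.89, 7.11 and 6.44 with Tet. Each pair was higher with Tet and the groups overlapped. The change of 0.49 (SE 0.27) had an adjusted p of 0.633, which became 0.0454 with the replicate block and 0.112 when that block was fitted on the HCT15 arrays alone, a variant added after seeing the data. Without the Tet array numbered 1 the change was 0.12 (adjusted p = 0.952). The 3 brighter LATS2 probe sets had changes of 0.07 to 0.14 and were called in neither fit.

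TEAD1 was slightly higher with Tet on all 3 of its probe sets in HCT15 WT, with no overlap between groups. The brightest read 11.29, 11.33 and 11.29 untagged and 11.40, 11.47 and 11.44 with Tet. The changes of 0.13, 0.23 and 0.14 had adjusted p of 0.832, 0.653 and 0.848, and none was called. In all, 6 of 21 member probe sets had every Tet array above every untagged array, where 7.14% of all probe sets did. YAP1 had changes of -0.01, 0.03 and 0.17 (SE 0.12 each), and the interval of its brightest probe set ran from -0.26 to 0.24.

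In HT115, induction of WT MLK4 called no member in either direction, and 0.134% of all probe sets were called (55 of 41091). The members' median change was 0.10, with 15 of 21 above 0, against -0.01 and 47.8% for all probe sets. CCN2 had the largest mean difference, with 5.95, 6.20 and 6.75 untagged and 6.65, 6.85 and 7.68 with Tet. The highest untagged array exceeded the lowest Tet array, and the change of 0.76 (SE 0.42, 95% interval -0.12 to 1.64) had an adjusted p of 0.80.

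CCN1 was higher in every HT115 WT Tet array on both probe sets. On 201289_at it read 7.77, 7.70 and 7.94 untagged and 8.05, 8.14 and 8.13 with Tet, a change of 0.30 (SE 0.20, adjusted p = 0.88). On 210764_s_at the change was 0.32 (SE 0.18, adjusted p = 0.809). ANKRD1 read 3.54, 3.47 and 3.32 untagged and 4.24, 3.60 and 3.90 with Tet, and AMOTL2 read 8.34, 8.36 and 8.46 against 8.52, 8.57 and 8.53. Neither of these genes' groups overlapped, and their changes of 0.47 (SE 0.49) and 0.16 (SE 0.13) were not called. With 1 TEAD1 probe set (214600_at, change 0.26), 5 member probe sets had no overlap with Tet higher, where 7.23% of all probe sets did.

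AXL did not share this direction in HT115 WT. Its brighter probe set read 4.91, 4.71 and 4.55 untagged and 4.68, 4.57 and 4.62 with Tet, a change of -0.10 (SE 0.12, 95% interval -0.36 to 0.16, adjusted p = 1.00). The dimmer one had a change of -0.37 (SE 0.15, adjusted p = 0.60). Both groups of arrays overlapped on each probe set.

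**Figure D2:**
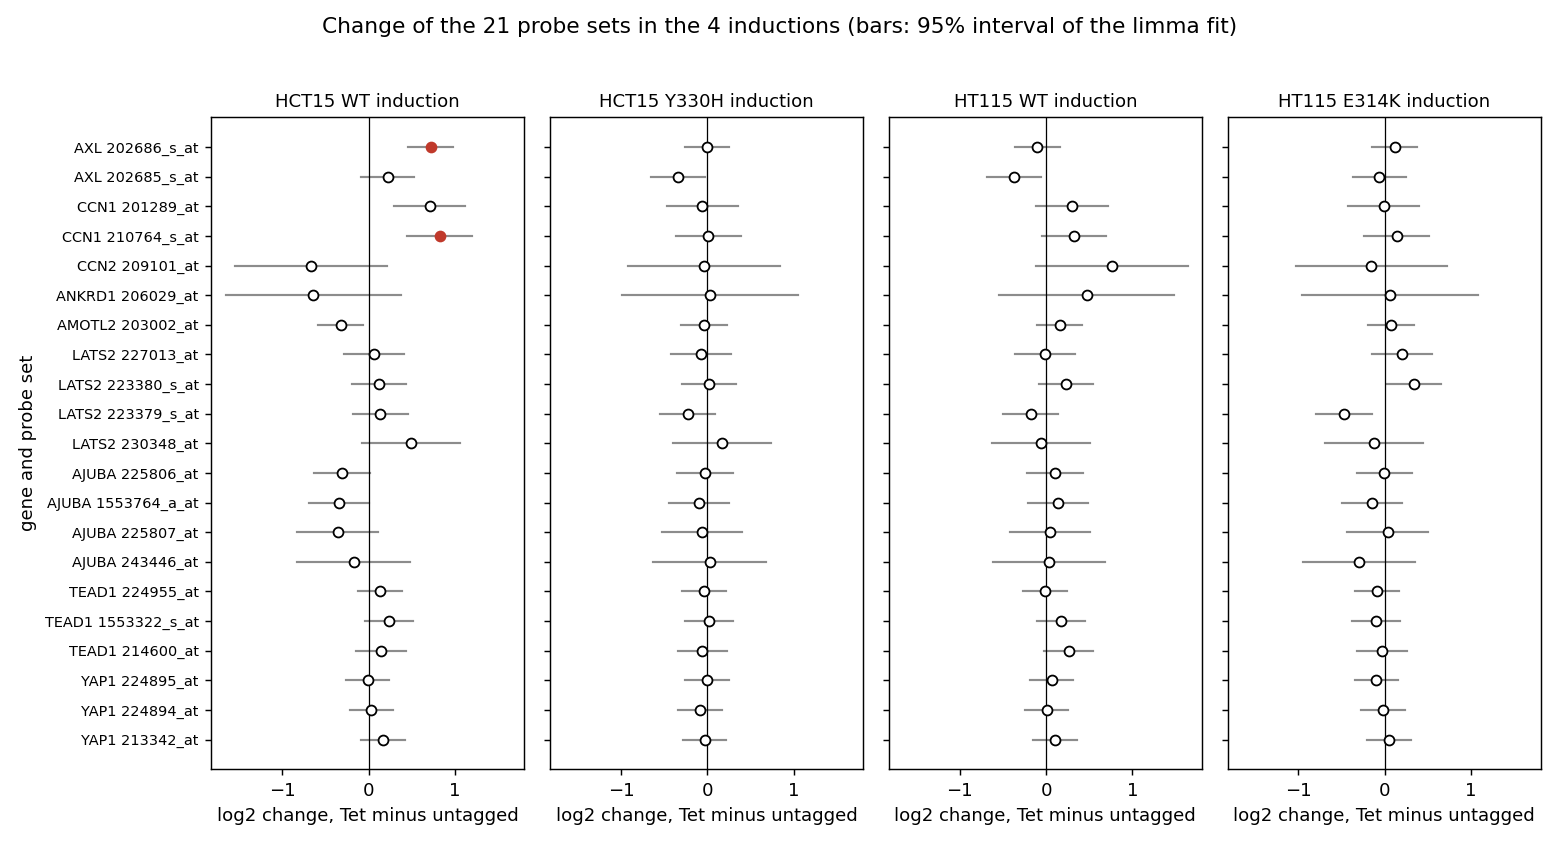
Log2 change (Tet minus untagged) of all 21 member probe sets in the 4 inductions, with 95% intervals from the limma fit; filled red points passed an adjusted p of 0.05. In HCT15 WT only AXL 202686_s_at (0.72) and CCN1 210764_s_at (0.82) passed, and no member passed in HT115 WT, HCT15 Y330H or HT115 E314K.

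The mutant forms gave no call among the members. In these inductions 0% of all 41091 probe sets were called, with 1163 probe sets at an unadjusted p under 0.05 in HCT15 Y330H and 761 in HT115 E314K. Member changes ran from -0.34 to 0.17 in HCT15 Y330H and from -0.47 to 0.34 in HT115 E314K. AXL on 202686_s_at read 5.56, 5.48 and 5.50 untagged and 5.70, 5.55 and 5.27 with Tet in HCT15 Y330H. The Tet arrays lay on both sides of the untagged ones, and the change was -0.0049 (SE 0.12). The CCN1 changes there were -0.06 and 0.01.

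A few member probe sets in the mutant inductions had groups that did not overlap. The dimmer AXL probe set was lower with Tet in HCT15 Y330H, by -0.34 (SE 0.15, adjusted p = 1.00), and all Tet arrays were below all untagged ones, as on 4.99% of all probe sets. In HT115 E314K, LATS2 on 223379_s_at read 6.73, 6.73 and 7.06 untagged and 6.56, 6.18 and 6.37 with Tet, a change of -0.47 (SE 0.15, adjusted p = 1.00). The LATS2 probe set 223380_s_at differed the other way, by 0.34, so the gene's probe sets disagreed. One AJUBA probe set was also lower in every Tet array there, where 3.28% of all probe sets were.

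Whether the WT induction differed from the mutant induction was tested directly. In HCT15 the difference for AXL was 0.73 (SE 0.18, 95% interval 0.36 to 1.09, adjusted p = 0.252). For CCN1 it was 0.76 (SE 0.28, adjusted p = 1.00) on 201289_at and 0.81 (SE 0.26, adjusted p = 0.741) on 210764_s_at. No member passed, and 0.0535% of all probe sets did. With the replicate block, 1 member passed, CCN1 on 201289_at (adjusted p = 0.0495), against 0.472% of all probe sets called higher, while AXL had an adjusted p of 0.0663. Fitted on the HCT15 arrays alone, the block called 0 members, with an adjusted p of 0.228 for that CCN1 probe set and 0.166 for AXL. Array weights, in contrast, called AXL (0.87, adjusted p = 0.0301). In HT115 no member passed, where 0.0195% of all probe sets did, and the CCN2 difference was 0.92 (SE 0.60, 95% interval -0.32 to 2.16).

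The difference between the WT inductions of the lines passed for no member in the fit without array weights, and 0.0292% of all probe sets passed. The AXL change in HCT15 exceeded that in HT115 by 0.82 (SE 0.18, 95% interval 0.46 to 1.19, adjusted p = 0.157), and array weights called it (0.91, adjusted p = 0.0101). For CCN2 the difference was -1.43 (SE 0.60, 95% interval -2.66 to -0.19, unadjusted p = 0.0262, adjusted p = 1.00), with lower means on Tet in HCT15 and higher ones in HT115. ANKRD1 and AMOTL2 had differences of the same sign, -1.11 (SE 0.69) and -0.48 (SE 0.18). For CCN1 the difference was 0.40 (SE 0.28) and 0.50 (SE 0.26), and both lines had higher means with Tet.

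Untagged arrays of 1 derivative of each line were then compared, as HT115 WT was on a scale of its own. HCT15 Y330H exceeded HT115 E314K on 18 of 21 member probe sets (85.7%), which covered all 9 genes, and none was lower. The background of this comparison is high: 15.7% of all probe sets were called higher and 14.8% lower. The member median was 0.70, with a range of 0.18 to 2.43, beside 0.05 over all probe sets. CCN2 had the largest difference, 5.38-fold, followed by ANKRD1 at 4.42-fold and LATS2 at 4.19-fold on 223380_s_at.

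CCN2 read 8.52, 7.33 and 7.16 in HCT15 Y330H and 5.36, 4.99 and 5.37 in HT115 E314K. The lowest HCT15 array was well above the highest HT115 array, and the difference was 2.43 (SE 0.42, adjusted p = 9.76e-05). ANKRD1 read 6.97, 4.99 and 5.13 in HCT15 Y330H and 3.01, 3.63 and 4.02 in HT115 E314K, a difference of 2.14 (SE 0.49, adjusted p = 0.00159). Its probe set is dim, at percentile 21.4 of all tested over the 18 arrays outside HT115 WT. The HCT15 Y330H arrays numbered 1, both untagged and Tet, stood above the others in ANKRD1, CCN2 and the AJUBA probe set 243446_at (7.97 and 7.77). Without both of them the ANKRD1 difference was 1.51 (adjusted p = 0.00148), the CCN2 difference was 2.00 (adjusted p = 0.000781), and 17 of 21 members were called.

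CCN1 read 9.40, 9.30 and 8.98 in HCT15 Y330H and 7.93, 7.29 and 7.44 in HT115 E314K on 201289_at, a 3.19-fold difference (log2 1.67, SE 0.20, adjusted p = 7.36e-07). AMOTL2 read 10.56, 10.60 and 10.60 against 9.52, 9.50 and 9.52, a 2.11-fold difference (log2 1.07, SE 0.13, adjusted p = 6.66e-07). LATS2 on 227013_at read 11.26, 11.51 and 11.39 against 9.97, 9.19 and 9.25, and all 4 LATS2 probe sets were called, with differences of 0.88 to 2.07. These groups were wholly apart.

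TEAD1 differed by 0.48 to 0.70 and YAP1 by 0.43 to 0.54, each called on all 3 probe sets. YAP1 on 224894_at read 10.97, 11.11 and 11.29 in HCT15 Y330H and 10.58, 10.57 and 10.75 in HT115 E314K. AXL read 5.56, 5.48 and 5.50 against 4.79, 5.05 and 5.05, a difference of 0.55 (SE 0.12, adjusted p = 0.00156), and its dimmer probe set was not called (0.18, adjusted p = 0.41). AJUBA was called on 2 of 4 probe sets, with differences of 0.55 to 0.76.

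**Figure D3:**
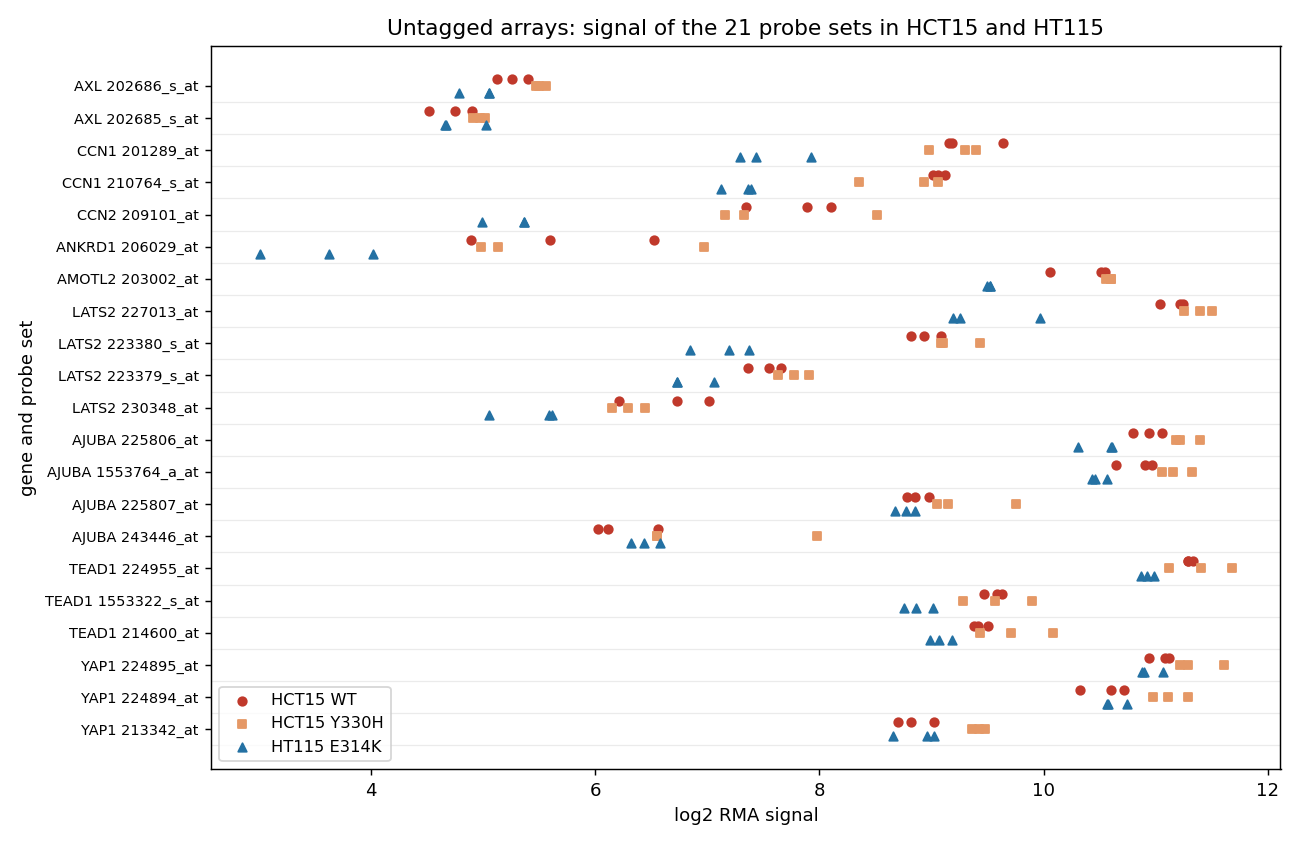
Log2 signal of the 21 member probe sets in the untagged arrays of HCT15 WT, HCT15 Y330H and HT115 E314K, 3 arrays each; points are compared within a row and not between rows. CCN2, ANKRD1, CCN1, AMOTL2 and LATS2 are higher in both HCT15 derivatives than in HT115 E314K (CCN2 7.16 to 8.52 and 7.34 to 8.11 against 4.99 to 5.37), whereas YAP1 in HCT15 WT lies near HT115 E314K.

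The untagged HCT15 derivatives were also compared with each other, and YAP1 was the only member gene called. Lower means in WT were not confined to YAP1: 17 of 21 member probe sets were below 0. The member median was -0.25 with 19% above 0, beside 0.02 and 54.1% over all probe sets. AJUBA differed by -0.79 to -0.33 and AXL by -0.25 and -0.24, and neither gene was called. On 224894_at YAP1 read 10.72, 10.33 and 10.60 in untagged HCT15 WT and 10.97, 11.11 and 11.29 in untagged HCT15 Y330H. On 213342_at it read 8.70, 8.82 and 9.02 against 9.36, 9.43 and 9.48. The WT arrays were below the Y330H arrays on both, by -0.57 (SE 0.12, adjusted p = 0.00636) and -0.58 (SE 0.12, adjusted p = 0.00639). These made 2 of 21 member probe sets (9.52%) lower and 0 higher, where 2.59% of all probe sets were called lower and 2.89% higher. The third YAP1 probe set, the brightest, differed by -0.32 (SE 0.12, adjusted p = 0.13). With only the compared arrays in the fit, both calls were lost at the same differences (adjusted p = 0.148 and 0.108), and without the untagged WT array numbered 2, 224894_at had an adjusted p of 0.0513. Markers differed in this comparison too: of 8 epithelial probe sets 2 were lower in WT, CDH17 (-3.66) and CDX2 (-0.80), 2 of 26 fibroblast probe sets were higher, both of COL1A1 (1.63 and 0.67), and of 9 leukocyte probe sets CD14 was higher (0.67). Their part in the YAP1 result was not tested.

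With HCT15 WT set against HT115 E314K in place of Y330H, a comparison chosen after seeing the data, 12 of 21 members (57.1%) of 7 genes were higher, where 18.6% of all probe sets were. CCN1 (1.78 and 1.77), CCN2 (2.54), ANKRD1 (2.12), AMOTL2 (0.86) and LATS2 (0.68 to 1.81) were called on every probe set. YAP1 differed by 0.10, -0.08 and -0.03 and AXL by 0.30 and -0.06, and neither gene was called. TEAD1 was called on 224955_at (adjusted p = 0.0185) and 1553322_s_at (0.000291) and AJUBA on 225806_at (0.037), but not on their other probe sets. The difference from HT115 E314K of the 5 genes called on every probe set was thus called with both HCT15 derivatives. That of YAP1 and AXL was called with Y330H alone, whose untagged arrays also entered the comparison of the HCT15 derivatives. HT115 WT entered neither comparison. Percentile ranks over HT115 WT and over the other 18 arrays, Tet arrays included, were 57 and 47.9 for CCN2. They were 71.9 and 73 (201289_at) and 70.2 and 69.8 (210764_s_at) for CCN1, 19.8 and 21.4 for ANKRD1, and 77.6 and 86.8 for AMOTL2. LATS2 ranked lower in HT115 WT on every probe set. Both line comparisons used the same untagged HT115 E314K arrays and are not independent. Line, derivative and MLK4 form cannot be told apart in these comparisons. Among leukocyte markers, LYZ averaged 13.7 in HT115 E314K and 4.53 in HCT15, CD14 averaged 5.61 and 7.72, CD3E averaged 3.08 and 2.99, and PTPRC averaged 4.59 and 4.66. Of the 9 leukocyte probe sets 1 was called higher in HCT15 Y330H (CD14) and 2 lower (LYZ), and 0 of 26 fibroblast and 0 of 9 endothelial probe sets were called. The part of these markers in the line comparison was not tested.

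The rest of the pathway was read from lists of known genes, which were also chosen with earlier results of these data at hand. Of 23 other genes known as YAP targets, 21 were measured, on 68 probe sets. In HCT15 WT, 2 of these rose and 0 fell, against 0.555% and 0.073% of all probe sets. Both that rose were probe sets of NT5E, the ecto-nucleotidase CD73 that makes extracellular adenosine. NT5E went from a mean of 5.22 to 6.61 on the first (1.39, SE 0.25, adjusted p = 0.00713) and from 6.47 to 7.93 on the second (1.46, SE 0.31, adjusted p = 0.0287). The list's median change was 0.17 with 48 of 68 (70.6%) above 0, beside -0.02 and 46.2% over all probe sets. With the replicate block 12 of the 68, from 7 genes, were higher and 0 lower, against 2.91% and 1.19% of all probe sets. In HT115 WT none of the 68 was called, the median was 0.10 beside -0.01 over all probe sets, and the smallest p belonged to THBS1, a matricellular protein (1.00, adjusted p = 0.103), and MYOF, a membrane-repair protein (0.55, adjusted p = 0.231).

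No probe set of the TEAD partners was called in either WT induction without the replicate block. The list of TAZ with TEAD and VGLL partners had 7 genes on 17 probe sets, and its median changes were 0.05 in HCT15 WT and -0.01 in HT115 WT. VGLL1, a TEAD cofactor that competes with YAP, had a change of -0.68 in HCT15 WT (mean 4.03 untagged and 3.35 with Tet, adjusted p = 0.0777), and its adjusted p was 0.0122 when replicates were blocked. WWTR1, which encodes TAZ, had a change of 0.43 there (adjusted p = 0.285). With the block 2 other probe sets were called higher in HCT15 WT, of WWTR1 (0.38, adjusted p = 0.0293) and VGLL3 (0.57, adjusted p = 0.0469). In HT115 WT the smallest p belonged to TEAD2 (0.32, adjusted p = 0.612) and VGLL3 (0.82, adjusted p = 0.723).

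The Hippo kinases and adaptors, 17 genes on 67 probe sets, had median changes of 0.02 in HCT15 WT and 0.06 in HT115 WT with 0 called. NF2, the upstream scaffold merlin, differed by 0.56 (adjusted p = 0.247) and 0.48 (adjusted p = 0.391) on 2 probe sets in HCT15 WT, the second with an adjusted p of 0.0459 when replicates were blocked. In HT115 WT, STK4, the kinase MST1, had a change of 0.57 (adjusted p = 0.521) and WWC1, the scaffold KIBRA, one of 0.70 (adjusted p = 0.589). Relatives of AJUBA and of the CCN proteins, 8 genes on 27 probe sets, had 0 called and medians of 0.03 and 0.07. The smallest p there belonged to CCN4 (0.26) and LIMD1 (0.28) in HCT15 WT and to LPP (0.33 and 0.24) in HT115 WT.

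The other receptors of the AXL family and their ligands were read beside AXL. TYRO3, MERTK, GAS6 and PROS1 had 8 probe sets, of which 0 were called in either WT induction, and 2 of 8 were above 0 in HCT15 WT. GAS6, the ligand of AXL, had means of 9.79 untagged and 9.27 with Tet on 1 probe set in HCT15 WT, which differ by -0.52 (adjusted p = 0.378); blocking on replicates brought the adjusted p to 0.017. MERTK had a change of -0.40 there (adjusted p = 0.582). In HT115 WT, GAS6 had a change of -0.33 (adjusted p = 0.838) and MERTK one of -0.22 (adjusted p = 0.866).

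Markers of other cell types were read beside the AXL and CCN1 results. Of the 26 fibroblast, 9 leukocyte and 9 endothelial marker probe sets, 0 were called in HCT15 WT. The mean of the 7 fibroblast genes ranged from 5.58 to 5.87 in untagged and from 5.55 to 5.66 in Tet arrays. The 6 epithelial genes ranged from 10.5 to 11.2 untagged and from 10.6 to 11.1 with Tet, and 0 of their 8 probe sets were called. With the replicate block 1 was, a probe set of the intestinal factor CDX2 (-0.47, adjusted p = 0.00893 blocked and 0.405 without the block).

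The genes whose signals most resembled AXL and CCN1 across arrays were also listed. Arrays of each line and form were centred on their own mean, and each gene's brightest probe set was compared over the 24 arrays with Pearson's r, as a description. These arrays share the inductions described above. For AXL the 5 nearest were LINC00518 (r = 0.843), KRTAP4-1 (0.834), DVL1 (0.817), PHLDB2 (0.816) and GPRC5A (0.815). For CCN1 they were GADD45A (r = 0.921), ALDH1A3 (0.901), ELFN2 (0.883), DUSP5 (0.88) and LIF (0.879). GADD45A, a stress-response gene, is also on the list of other YAP targets and had changes of 0.58 in HCT15 WT and 0.23 in HT115 WT. KRTAP4-1 and GPRC5A had the largest HCT15 WT changes of the AXL group, 3.36 and 2.91, with 0.04 and 0.12 in HT115 WT.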

How the data were processed

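RNA of 24 samples (8 groups of 3) was amplified with a NuGEN whole-transcriptome kit and measured on Affymetrix U133 Plus 2.0 arrays (source: the labels' protocols). The authors deposited a log2 signal for each probe set, computed with RMA in Affymetrix Power Tools, as the submitters' processing notes state; versions are not given in the sources used here. Of all 54675 probe sets, 41097 had 1 gene symbol, 1801 several and 11777 none. After removal of controls, 41091 were tested, with no filter on dim signal.

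A linear model with 8 group means was fitted to all 24 arrays in limma (version 3.58.1, R 4.3.3), with moderated variances without trend and 16 residual and 5.08 prior degrees of freedom. Calls needed an adjusted p below 0.05 (Benjamini-Hochberg, over all 41091). Adjusted p values and standard errors come from this model, except where blocking on replicates is named. In simulated data the fit recovered 34.3% of 1.5-fold and 83.6% of 2-fold changes in HCT15 WT induction. In HT115 WT induction it recovered 37.3% and 79.1%. A member that was not called may therefore still have changed by such an amount. These shares are averages over randomly drawn probe sets with independent noise, without the pairing seen in HCT15. In HCT15 WT induction CCN2 and ANKRD1 had SE of 0.42 and 0.49, beside 0.12 for AXL on 202686_s_at. Recovery at the spread of single members was not computed. The number of arrays limits the precision.

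Same-numbered Tet and untagged arrays deviated together in HCT15 WT (r = 0.552, 0.45 and 0.359 over probe sets) and HCT15 Y330H (0.75, 0.563 and 0.32), so their numbers were taken as pairs. In HT115 E314K (0.595, 0.064 and 0.32) and HT115 WT (0.241, 0.179 and -0.003) they were not. The replicate block was still fitted to all 24 arrays with every same-numbered pair as a block, those of HT115 included. Its spread for HCT15 therefore also rests on the HT115 pairs. Only the fit on the HCT15 arrays alone leaves them out. Nothing in the labels says that replicates were separate cultures, so the p-values rest on a spread between samples that may be technical.

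All member probe sets are reported. From each pathway list the called probe sets with the smallest p are named, up to 4 per induction, or up to 2 with the smallest p where none was called. The members and lists were chosen with earlier results of these data known. The alternatives tried are in the closing section.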

Additional observations from a re-analysis of the deposited data

How the results depend on the processing

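Counts are members called (of 21) with all probe sets called beside them. HCT15 WT induction gave 2 (258 in all), and 0 (2) when only its own 6 arrays were fitted, 1 of 16 (286) with only probe sets at or above the median signal, 1 of 9 (138) with the brightest probe set per gene, 5 (2294) with array weights, 0 (87) without both arrays numbered 1, and 0 to 3 (103 to 445) when each array was left out in turn. Array weights also called ANKRD1 (-1.22, adjusted p = 0.0392) and AMOTL2 (-0.44, adjusted p = 0.0201). Over its alternatives the AXL change on 202686_s_at ran from 0.65 to 0.80, and its call was lost with its own arrays alone (adjusted p = 0.214), without Tet array 1 and without both arrays numbered 1.

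The pairing of arrays by replicate number, which the replicate block applied to both lines, changed calls. With the replicate block, HCT15 WT induction called 4 (1682), and the HCT15 WT minus Y330H difference called 1 (275) instead of 0 (22); HT115 counts of members stayed at 0. Fitted on the HCT15 arrays alone, a variant chosen after seeing the data, the block gave adjusted p of 0.0186 for AXL and of 0.0354 and 0.0368 for CCN1 in the induction, but did not call LATS2 (0.112), and it called 0 (12) for the difference from Y330H, with 0.166 for AXL and 0.228 for CCN1. Array weights called AXL in that difference (0.87, adjusted p = 0.0301; 1 member, 55 in all) and in HCT15 WT minus HT115 WT (0.91, adjusted p = 0.0101; 1 member, 76 in all). The block also paired the HT115 WT arrays, although their numbers were not judged to be pairs. There it called 6 of the 68 probe sets of other YAP targets, from THBS1 and MYOF, where it called 0.64% of all probe sets higher. In the same fit 1 of 17 probe sets of the TEAD partners and 2 of 67 of the Hippo kinases and adaptors were called, all higher.

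HCT15 WT against Y330H in untagged arrays gave 2 (2253), and 0 (254) with only its own arrays, 7 (7089) with array weights, 0 of 9 (1181) with the brightest probe set per gene and 1 to 2 when arrays were left out. The ANKRD1 difference there turned to 0.99 (adjusted p = 0.0493) with array weights, from -0.03. The line comparison gave 18 (12538), 9 of 9 (6305) with the brightest probe set per gene, and 17 to 19 when arrays were left out. With HCT15 WT in place of Y330H, the YAP1 differences turned to -0.079 and -0.034. Centring arrays on their medians and eBayes with trend kept each comparison's count of members within 1.5 times. The causes were not tested. Signal over background is unknown here, which limits what can be said of the dim AXL and ANKRD1 probe sets. These probe sets were not in the fit on probe sets at or above the median signal, so that fit says nothing about them.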
